A study of Homo sapiens with 6 samples.

Results

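The fragile X family comprises FXR1, FMR1 and FXR2, and all 3 genes were found by symbol among the 61806 genes of the deposited expression table. They were examined in MG63, an established human osteosarcoma cell line, in 3 libraries from cells with a stable short hairpin against FTO (shFTO) and 3 libraries from cells with a control hairpin (shNC). FTO encodes a demethylase that removes N6-methyladenosine (m6A) from RNA. No drug or other agent is named for either group, and the sources used here do not say whether the cells of a group were a clone or a pool. The family was picked in part because the level of FXR1 was slightly lower in shFTO, so the difference between the groups is described for the 3 genes and not tested.

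The family encodes RNA-binding proteins with KH and RGG domains that associate with polyribosomes and with RNA granules and restrain or tune the translation of the transcripts they bind. FMR1 encodes FMRP, whose loss through silencing of its promoter causes fragile X syndrome. FXR1 and FXR2 are its autosomal paralogs. FXR1 is known for its role in muscle, and FMRP and its paralogs have been reported to bind m6A-marked transcripts.

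Levels were deposited as FPKM, reads scaled to the exonic length of the gene and to the reads of the library. Behind them stood 93629 to 106245 recovered reads per library, 592760 in all, and 54749 genes had no read in any library. FTO itself had 0 reads in all 6 libraries. A count of 0 allows up to 3 reads over a group, which is 0.462 FPKM in shFTO and 0.486 FPKM in shNC, so the knockdown could not be checked in these libraries. These limits cover counting error only. In bulk RNA, fewer cells of a type and less RNA per cell cannot be told apart. Of 9 markers of mesenchyme and bone 6 had reads, at 71.5 to 88.2 of 100000 reads in shFTO and 64.1 to 79.2 in shNC, while ALPL, BGLAP and SPP1 had none. Among markers of other cell types, the 7 muscle and 5 blood genes had no read. The 7 neural genes had 1 read in all (TUBB3), the 4 endothelial genes 1 (PECAM1) and the 6 epithelial genes 8, of which 6 were KRT18 reads in shFTO libraries.

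The 3 coding sequences were compared first, since reads from near-identical stretches could be credited to the wrong paralog. In the principal transcripts of GENCODE release 29, 66.2% of aligned coding bases were identical between FXR1 and FMR1, 63.2% between FXR1 and FXR2 and 60.0% between FMR1 and FXR2. The longest unbroken run shared by a pair was 14 bases for FXR1 and FMR1, 20 for FXR1 and FXR2 and 18 for FMR1 and FXR2. The most alike 75 bases of all 3 are printed here because they mark how close the paralogs come. They run from exon 4 into exon 5 in each gene, and capitals mark the columns that differ between at least a pair of the genes.
FXR1: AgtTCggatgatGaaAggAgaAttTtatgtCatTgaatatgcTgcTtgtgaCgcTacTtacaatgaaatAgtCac
FMR1: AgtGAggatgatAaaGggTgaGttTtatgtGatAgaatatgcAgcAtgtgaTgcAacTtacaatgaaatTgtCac
FXR2: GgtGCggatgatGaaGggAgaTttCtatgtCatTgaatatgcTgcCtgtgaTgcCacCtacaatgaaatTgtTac
In GRCh38 these coding bases lie at chr3:180947915-180948399 on the plus strand for FXR1, chrX:147928372-147928711 on the plus strand for FMR1 and chr17:7603853-7604030 on the minus strand for FXR2, each with an intron between. Within them 58 of 75 columns were the same in all 3 genes. FXR1 and FMR1 differed at 13 bases, FXR1 and FXR2 at 11, and FMR1 and FXR2 at 13.

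No stretch of 50 bases was shared between the annotated transcripts of any pair of members. Of the 50-base stretches of FXR1, 99.7% occurred in no other annotated gene. The exception was 32 of 12458 stretches shared with an FXR1 pseudogene (ENSG00000257376, GRCh38 chr12:42431665-42433357). That pseudogene had 1 read, in shFTO replicate 3. FMR1 shared no such stretch with another gene, and FXR2 shared 52 of 4466. The read length is not stated in the labels. The pentamer GGACT, a frequent core of m6A sites, occurred once in the coding sequence of FXR1 and 5 times in that of FXR2, and was not found in that of FMR1. Of 2280 human coding sequences of 1700 to 2200 bases, 85.8% hold it at least once, read on the transcribed sense only. Only the coding sequences were searched, 1863 of 8711 transcript bases for FXR1, 1896 of 4308 for FMR1 and 2019 of 2957 for FXR2. Whether the untranslated parts hold the pentamer was not examined. A match is not a mapped m6A site.

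FXR1 (ENSG00000114416, chr3:180868141-180982753, plus strand) stood highest of the family per exonic length. It had 264.75, 262.28 and 244.2 FPKM in shFTO replicates 1, 2 and 3, against 299.03, 300.21 and 278.84 FPKM in shNC replicates 1, 2 and 3. All 3 shFTO values lay below every shNC value. These levels came from 334, 293 and 300 reads in shFTO and 335, 360 and 310 reads in shNC, so the reads themselves overlap and the gap appears after scaling to library size. The mean level was 257 ± 11.2 FPKM in shFTO and 293 ± 12.01 FPKM in shNC (SD, n = 3 each). On log2(FPKM + 1) the difference was -0.19 (SE 0.14, limma), a ratio of means of 0.878. Of the 150 genes averaging 100 or more reads per library, 3.33% had all shFTO libraries below every shNC library, FXR1 among them, and 6.67% had all of them above. Nothing is read from that count, since the gene was picked on this contrast.

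The spread of FXR1 between replicates was about what counting alone gives. The coefficient of variation was 4.36% in shFTO and 4.1% in shNC, while counting error at these depths would give 5.69% in shFTO and 5.46% in shNC. Of the other 149 genes at that depth, 7 had a lower estimate than FXR1 and 142 a higher one, and the median estimate over the 150 genes was 0.02. Leaving out each library in turn kept the FXR1 difference between -0.22 and -0.15. Neither this range nor the place among 149 genes tests FXR1, since the family was picked in part on this contrast. In 149 genes compared over the 6 libraries, the levels most like those of FXR1 on log2(FPKM + 1) were of DDX5, an RNA helicase gene, with a Pearson r of 0.874. AP3S1, a subunit of an adaptor complex of vesicle traffic, had 0.868 and the pseudogene HNRNPA3P6 had 0.859. These are the highest of 149 values from 6 libraries that share their totals, and are given as a description. HNRNPA3P6 can share reads with its parent gene.

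FMR1 (ENSG00000102081, chrX:147911919-147951125, plus strand) had 179.3, 197.31 and 163.45 FPKM in shFTO replicates 1, 2 and 3, against 154.52, 179 and 202.42 FPKM in shNC replicates 1, 2 and 3. The lowest and the highest of the 6 values were both shNC libraries, and the groups overlapped. The mean was 180 ± 16.9 FPKM in shFTO and 179 ± 24.0 FPKM in shNC (SD, n = 3 each), from 561 reads in shFTO and 531 in shNC. The log2 difference was 0.02 (SE 0.18, limma). It was -0.05 without shFTO replicate 2 and -0.08 without shNC replicate 1, so its sign rests on single libraries. The coefficient of variation of FMR1 was 9.41% in shFTO and 13.4% in shNC, where counting error would give 7.31% in shFTO and 7.52% in shNC. Whether FMR1 and FXR1 differ in this spread was not tested. Among the patterns nearest to it was that of PNN, a gene of a nuclear speckle and cell junction protein, with a Pearson r of 0.986 over the 6 libraries. HNRNPH1, a splicing regulator gene, had 0.844. PNN had 302, 329 and 260 FPKM in shFTO replicates 1, 2 and 3, against 247, 290 and 328 FPKM in shNC replicates 1, 2 and 3. As with FMR1, shNC replicate 1 was the lowest of the 6 libraries for PNN and the groups overlapped. PNN was the nearest of 149 genes compared, so this likeness follows from how it was chosen and is a description.

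FMR1 is the member known for silencing at its promoter, and it had between 150 and 196 reads in each library. The 250 bases before its RefSeq start (GRCh38.p14, chrX:147911669-147911918, plus strand) are shown for that reason. Capitals mark the only CACGTG, a form of the E-box, beginning 50 bases before the start. Other forms of the E-box were not searched.
FMR1 promoter: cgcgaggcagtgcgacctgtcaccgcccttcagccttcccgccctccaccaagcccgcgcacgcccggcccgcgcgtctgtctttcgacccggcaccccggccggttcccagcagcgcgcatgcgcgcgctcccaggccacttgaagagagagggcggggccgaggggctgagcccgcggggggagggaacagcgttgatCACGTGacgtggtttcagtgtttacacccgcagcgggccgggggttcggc
The window holds 32 CG pairs, against a median of 11 over 27305 human promoters. The corresponding windows of FXR1 and FXR2 hold 16 and 21. FXR1 has 2 RefSeq starts listed, and only the window of the first listed was used. CACGTG, whose letters read the same on both strands, was found in 6.49% of those promoters, and neither the FXR1 nor the FXR2 window holds it. A match is not evidence of binding.

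FXR2 (ENSG00000129245, chr17:7591230-7614897, minus strand) was close to the detection limit. It had 15.12, 14.64 and 2.22 FPKM in shFTO replicates 1, 2 and 3, against 7.3, 2.27 and 12.26 FPKM in shNC replicates 1, 2 and 3. The groups overlapped, and each had a library with a single read. The reads were 7, 6 and 1 in shFTO and 3, 1 and 5 in shNC, and 1 read of FXR2 is worth 2.16 to 2.45 FPKM depending on the library. The mean was 10.7 ± 7.31 FPKM in shFTO and 7.28 ± 5.0 FPKM in shNC (SD, n = 3 each). The log2 difference was 0.39 (SE 0.73, limma) and depended on single libraries, at 0.00 without shFTO replicate 1, -0.17 without shNC replicate 2, 0.02 without shFTO replicate 2, 1.16 without shFTO replicate 3 and 0.84 without shNC replicate 3. A difference in FXR2 was not detectable at this depth.

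**Figure D1:**
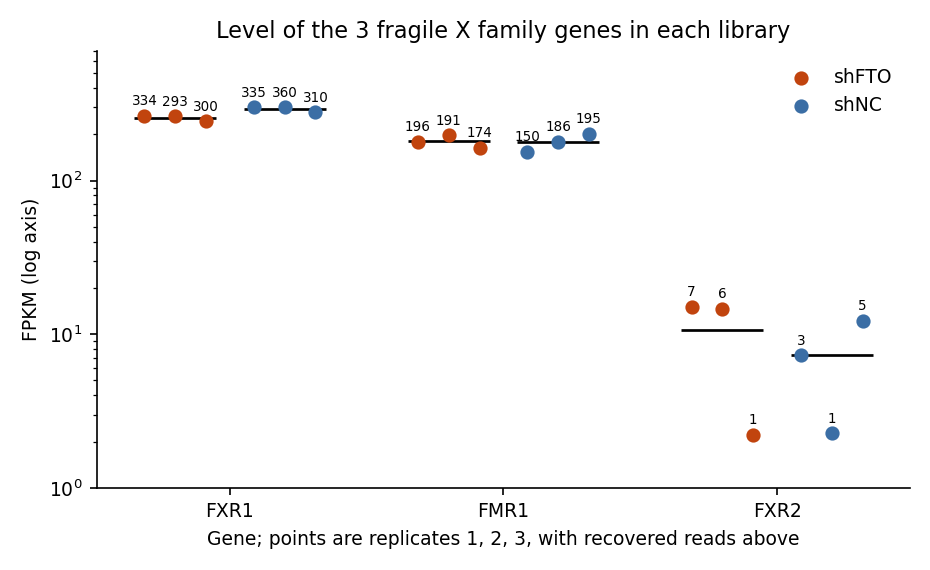
FPKM on a log axis for FXR1, FMR1 and FXR2 in each library, with shFTO in orange to the left of shNC in blue, black bars at the group means and the recovered reads printed above each point. FXR1 lies between 244.2 and 300.21 FPKM and FMR1 between 154.52 and 202.42 FPKM, while FXR2 rests on 1 to 7 reads per library.

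None of the 3 genes was among the genes called between shFTO and shNC in limma over 4932 genes, where 0.0406% of genes were called at an adjusted p under 0.05 (2 lower, 0 higher). No p is given for the members, since the contrast helped to choose them.

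**Figure D2:**
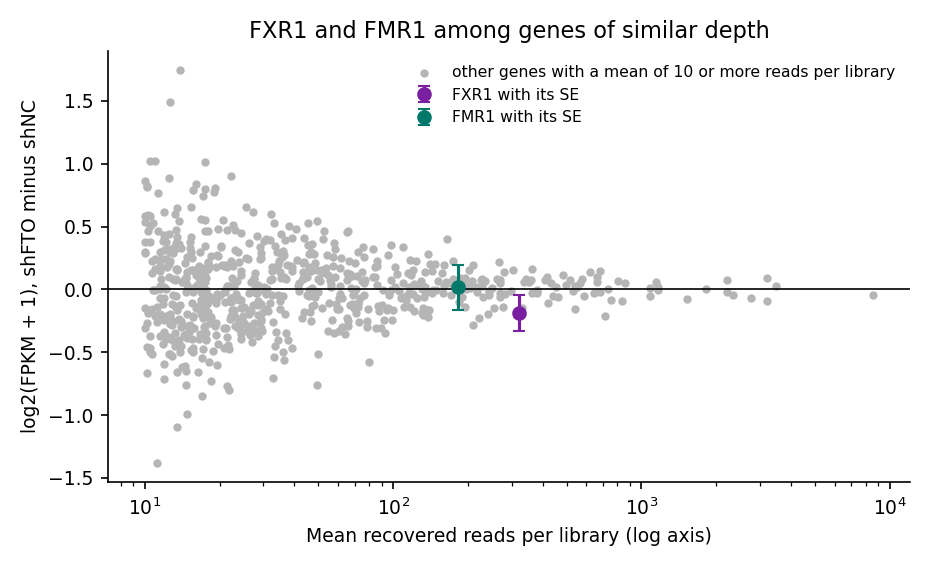
Difference between shFTO and shNC on log2(FPKM + 1) against mean recovered reads per library, on a log axis, for genes averaging 10 or more reads per library. FXR1, at -0.19, lies near the lower edge of genes of its depth, and this estimate helped to choose the family. FMR1, at 0.02, lies in the middle. Bars are limma standard errors, and FXR2 has too few reads to be plotted.

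The order of levels within a library was not used to choose the family, and it was tested over the 6 libraries. FXR1 exceeded FMR1 in 6 of 6 libraries, by 1.33 to 1.94 times on the FPKM scale. The mean log2 ratio was 0.62 ± 0.20 (SD). FXR1 exceeded FXR2 by 17.5 to 132 times and FMR1 exceeded FXR2 by 11.9 to 78.9 times, in 6 of 6 libraries each. In the exact two-sided sign-flip permutation test each of the 3 ratios had p = 0.0312, the smallest that 6 libraries allow, and an adjusted p of 0.0312 over the 3 pairs. The libraries of both groups entered this test together, and the replicates within a group share their cell line.

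The place of FXR1 above FMR1 rests on how length is counted. The deposited exonic length joins all exons of a gene, 11874 bases for FXR1, 10289 for FMR1 and 4357 for FXR2. The principal transcripts are 8711, 4308 and 2957 bases long. With the same reads divided by these lengths, an alternative chosen after seeing the data, FXR1 averaged 350 ± 15.3 FPKM in shFTO and 399 ± 16.4 FPKM in shNC. FMR1 then averaged 430 ± 40.5 FPKM in shFTO and 427 ± 57.2 FPKM in shNC. FXR1 was higher in only 1 of 6 libraries on that scale, with a mean log2 ratio of -0.19 (exact permutation adjusted p = 0.0938). FXR2 stayed lowest on every scale, at 15.7 ± 10.8 FPKM in shFTO and 10.7 ± 7.36 FPKM in shNC per principal transcript length. FXR1 and FMR1 therefore cannot be ordered by transcripts without knowing which isoforms were present, whereas both lay above FXR2 whichever length was used.

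**Figure D3:**
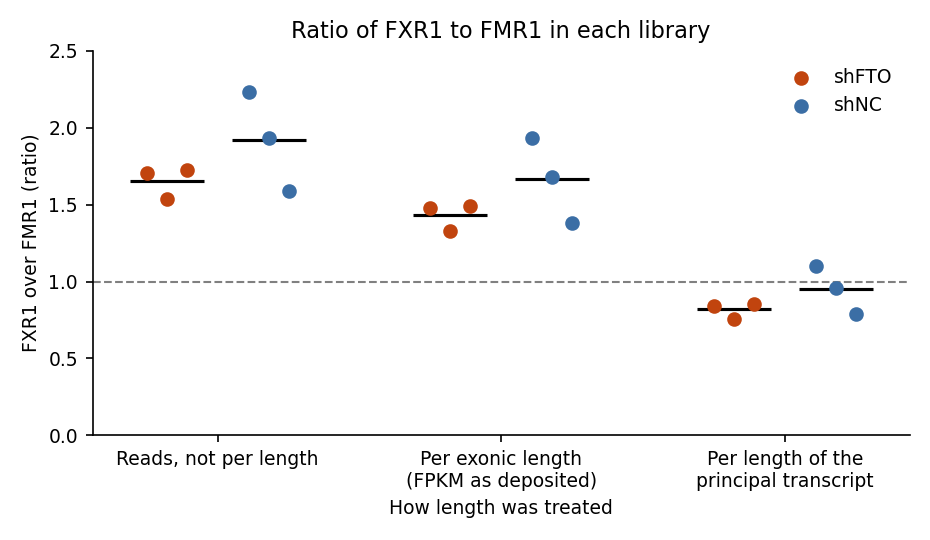
Ratio of FXR1 to FMR1 in each library as reads, per deposited exonic length and per length of the principal transcript, with shFTO left of shNC and black bars at group means. The ratio exceeds 1 in 6 of 6 libraries for the first 2 measures and in 1 of 6 for the last.

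The balance between FXR1 and FMR1 overlapped between the groups. The FPKM ratio was 1.48, 1.33 and 1.49 in shFTO replicates 1, 2 and 3, against 1.94, 1.68 and 1.38 in shNC replicates 1, 2 and 3. The 3 shFTO ratios lay within 1.33 to 1.49, while the shNC ratios spread more widely. The family as a whole held 505, 521 and 459 of 100000 reads in shFTO replicates 1, 2 and 3, against 517, 542 and 545 in shNC replicates 1, 2 and 3. The groups overlapped in shFTO replicate 2 and shNC replicate 1. Of the 3047 reads of the family, FXR1 held 63.4%, FMR1 35.8% and FXR2 0.755%.

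By mean FPKM over the 6 libraries FXR1 ranked 120 among all genes, FMR1 176 and FXR2 1103. These ranks describe the deposited libraries, in which reads were spread very unevenly. EIF4G2 averaged 8595 reads per library and FXR1 322, against 14.67 for GAPDH and 12.5 for ACTB. The cause of this make-up was not tested, so the ranks may not hold for MG63 cells in general. The levels next to FXR1 at 275 FPKM were those of PPP1CC, a phosphatase gene, at 275 FPKM and the pseudogene RPL23P8 at 274 FPKM. Those next to FMR1 at 179 FPKM were PUM2, a translational repressor gene, at 182 FPKM and RPS6KB1, a kinase gene of the mTOR pathway, at 178 FPKM. FXR2 at 8.97 FPKM lay beside TNPO2, an import receptor gene, at 8.98 FPKM and the splicing gene ZMAT2 at 8.96 FPKM. Neighbours this close differ by far less than the replicate spread of the members.

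Of 65 genes within 200 kb of a member 7 had reads, beside 7057 of 61806 genes in the table. Within 200 kb of FXR1 1 of 12 other genes had reads, DNAJC19, a mitochondrial import gene, with 0 in shFTO and 2 in shNC. Within 200 kb of FMR1 0 of 11 had any. Around FXR2, in a denser part of chromosome 17, 6 of 42 had reads. The most were of NLGN2, a synaptic adhesion gene, with 23 in shFTO and 23 in shNC, and POLR2A, the largest subunit of RNA polymerase II, with 10 in shFTO and 9 in shNC. Among genes that overlap a member, only MPDU1 had a read, 1 in shFTO, on the strand opposite to FXR2, which had 23 reads in all.

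Proteins known to bind the family or to share its granules were mostly represented. Of 28 partner genes 24 had reads, 10568 in all, and 19 were tested. In limma 0 were called in either direction and 1 had an unadjusted p under 0.05, beside 190 of all 4932 tested genes. The gene, named after its values were seen, was STRAP, with 5 reads in shFTO and 1 in shNC. In limma-voom on recovered reads 0 were of either kind, beside 127 of 4932 genes at that unadjusted p. The median log2 difference was 0.08, against 0.00 over all 4932 tested genes. The most reads were of UBAP2L, a stress granule nucleator, at 746 ± 20.6 FPKM in shFTO and 736 ± 24.1 FPKM in shNC (log2 difference 0.02, SE 0.10). CAPRIN1, a granule protein that binds FMRP and the G3BP proteins, had 259 ± 29.02 FPKM in shFTO and 246 ± 31.2 FPKM in shNC. TIAL1, which also assembles granules, had 309 ± 30.8 FPKM in shFTO and 322 ± 21.1 FPKM in shNC.

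In 0 of the 13 partner genes averaging 10 or more reads per library were all shFTO values below every shNC value. In 1, not named here, all lay above. Of the 705 genes at that depth, 4.68% lay below and 5.11% above. NUFIP2, a nuclear FMRP-interacting protein, had 123 ± 22.2 FPKM in shFTO and 137.5 ± 12.3 FPKM in shNC.

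Reads were spread unevenly among related or like-named partner genes. NUFIP2 had 837 reads over the 6 libraries while NUFIP1 had 0, and CYFIP1 had 91 while CYFIP2 had 0. The stress granule genes G3BP2 and G3BP1 had 72 and 20 reads. Of the argonaute genes, which carry out silencing by small RNAs, AGO2 had 30 reads, AGO3 4, AGO4 2 and AGO1 0. TOP3B, a topoisomerase that acts on RNA, had 0 and its partner TDRD3 had 1. These genes, other than NUFIP2 and CYFIP1, were named after their values were seen. Read totals are not corrected for length, and a gene at 0 may lie below the 3 reads per group that a count of 0 allows.

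CYFIP1 links FMRP to the WAVE complex, which drives branching of actin filaments. It had 16.3 ± 3.56 FPKM in shFTO and 12.9 ± 5.16 FPKM in shNC, from 52 reads in shFTO and 39 in shNC (log2 difference 0.38, SE 0.51, limma adjusted p = 0.812). Of 10 genes of the complex and its activator RAC1, 9 had reads and 7 were tested. In limma 0 were called in either direction and 1 had an unadjusted p under 0.05, beside 190 of all 4932 tested genes. The gene, named after its values were seen, was BRK1, a small subunit, with 5 reads in shFTO and 1 in shNC. In limma-voom 0 were of either kind, beside 127 of 4932 genes at that unadjusted p. The median log2 difference was 0.22, and 0.31 over the 2 genes averaging 10 or more reads per library, NCKAP1 and CYFIP1. The median over the tested genes was -0.26 without shFTO replicate 1 and -0.04 without shNC replicate 2, so its direction rests on single libraries. NCKAP1, a scaffold subunit, had 14.1 ± 1.36 FPKM in shFTO and 11.9 ± 2.57 FPKM in shNC. ABI1, an adaptor subunit, had 17 reads in shFTO and 18 in shNC, while RAC1 and the WAVE protein gene WASF2 had 6 each in shFTO and 7 each in shNC.

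Among 33 other genes with KH domains, 26 had reads and 22 were tested. Neither limma nor limma-voom called any of them in either direction, and 0 reached an unadjusted p under 0.05 with either tool. Over all 4932 tested genes, 190 did so in limma and 127 in limma-voom. The difference was above zero for 11 and below zero for 11, with a median of 0.00. HNRNPK, a nuclear RNA-binding protein, stood at 1450.5 ± 75.6 FPKM in shFTO and 1449 ± 74.7 FPKM in shNC, and PCBP2, a poly(C)-binding protein, at 865 ± 77.6 FPKM in shFTO and 875 ± 64.2 FPKM in shNC. PCBP1, its close relative, had 922 ± 166 FPKM in shFTO and 936 ± 86.4 FPKM in shNC, and the branch point binding gene SF1 had 252 ± 9.25 FPKM in shFTO and 253 ± 25.6 FPKM in shNC. QKI, a splicing and stability regulator, had 265 ± 23.1 FPKM in shFTO and 275 ± 18.4 FPKM in shNC, a level like that of FXR1. Of the 8 averaging 10 or more reads per library, the groups did not overlap for MEX3C, with a log2 difference of -0.20 (SE 0.18), and FUBP1, with 0.48 (SE 0.39), beside 4.68% and 5.11% of 705 genes in those directions. MEX3C and FUBP1 were named after their values were seen.

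**Figure D4:**
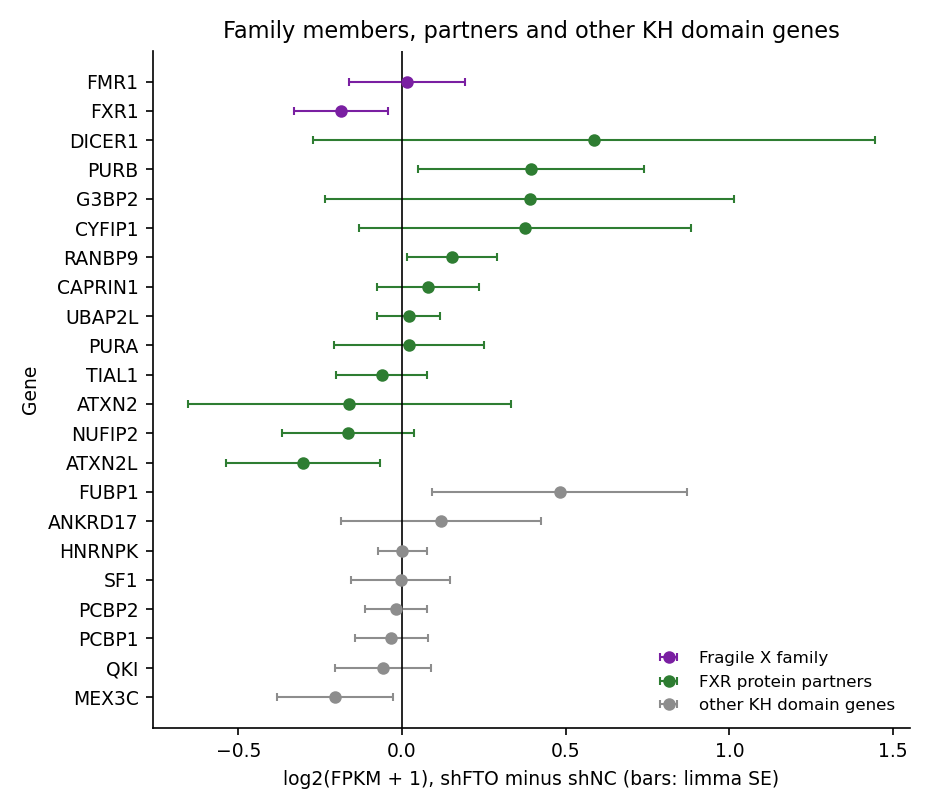
Difference between shFTO and shNC on log2(FPKM + 1), with limma standard errors as bars, for FXR1, FMR1, 12 of the 13 partner genes and the 8 other KH domain genes averaging 10 or more reads per library. None of the genes plotted was called, and bars widen for genes with few reads such as DICER1.

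Transcripts often named as targets of FMRP or FXR1 were scarce in these libraries. Of 12 such genes 4 had reads, 104 in all, and neither limma nor limma-voom called any of the 4. In both, 0 had an unadjusted p under 0.05, beside 190 of 4932 genes in limma and 127 in limma-voom. APP, the amyloid precursor gene, had 16.9 ± 8.55 FPKM in shFTO and 10.9 ± 3.75 FPKM in shNC, from 33 reads in shFTO and 20 in shNC. MAP1B, a microtubule-associated protein and a classic FMRP target, had 7 reads in shFTO and 15 in shNC. CDKN1A, a cell cycle inhibitor, had 8 reads in shFTO and 7 in shNC, and the synaptic scaffold gene DLG4 had 7 in each. The other 8, mostly neuronal genes, had no read in any library, so the targets could not be followed at this depth.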

How the data were processed

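Poly(A) RNA of 6 MG63 libraries was sequenced, per the labels' protocols. The submitters' processing notes name the build GRCh38 and, among the tools, HISAT2 2.2.1 and HTSeq 0.6.1. How each was used, and whether counting used strand, is not stated there. The authors deposited FPKM per gene with exonic length. Columns named NC were taken as shNC, and the other hairpin columns, named sh, as shFTO.

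Whole reads were recovered by searching the library total at which FPKM times length gave whole numbers: 100% of values above 0 were within 0.05 read. Libraries of a group differed by more than counting error (chi-square per degree of freedom 1.78 to 2.08). Precision is limited by the 93629 to 106245 reads per library.

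limma 3.58.1 (R 4.3.3; trend, robust) was fitted to log2(FPKM + 1). It took the 4932 genes that averaged 1 FPKM or more in either group, with Benjamini-Hochberg adjustment and a threshold of 0.05. The fit was run on simulated data with larger changes than those of the members and less spread between libraries. That run does not show whether changes of the members' size can be detected. Level ratios were tested by exact sign-flip permutation. Coding sequences were aligned with MAFFT 7.526. Promoters are from RefSeq (GRCh38.p14), where all 3 members matched by symbol, and transcripts from GENCODE release 29. Named genes were the members, the 5 genes with the most reads in each list, neighbours within 200 kb with reads, the 3 genes nearest in pattern (among those averaging 100 or more reads per library) and those nearest in level; some are given only as counts, and some are not reported here. Members and lists were chosen with earlier results of these data known. The replicates are biological, per the labels, and the p-values measure the spread between them. Alternatives were other pseudocounts, filters, scalings, limma-voom, a replicate block, each library left out, and another length.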

Additional observations from a re-analysis of the deposited data

How the results depend on the processing

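The differences of FXR1, FMR1 and FXR2 moved by less than the spread between replicates under every alternative run, with leave-one-out ranges of -0.22 to -0.15, -0.08 to 0.11 and -0.17 to 1.16; FXR2 could not be fitted under the filter of a mean of 10 reads per library. The number of genes called, 2 as reported, was 7 with a pseudocount of 0.1 FPKM, 0 with 10 FPKM (142 at an unadjusted p under 0.05), 9 with no filter, 0 with a mean of 10 or more reads per library (31 at an unadjusted p under 0.05) and 11 in limma-voom, and 2 to 9 without 1 library (8 without shFTO replicate 1, 9 without shNC replicate 2 and 7 without shNC replicate 3). The cause was not tested. With a replicate block it was 17, and the members' differences were -0.19, 0.02 and 0.39. Same-numbered libraries had correlations of -0.003, 0.039 and -0.012 in their deviations from the group means over 705 genes. Not every library correlated best with its own number. Counting error at this depth lowers such correlations, so these values do not settle whether the numbers pair the samples. With the principal transcript length, chosen after seeing the data, the log2 ratio of FXR1 over FMR1 reversed to -0.19. Without 1 library the log2 ratios were 0.55 to 0.66 for FXR1 over FMR1, 4.99 to 5.57 for FXR1 over FXR2 and 4.39 to 4.94 for FMR1 over FXR2, at an exact permutation adjusted p of 0.0625, the smallest that 5 libraries allow. The family's share differed by -39.4 per 100000 reads, and by -52.2 to -21.4 without 1 library. Median differences of the lists ran, without 1 library, from -0.02 to 0.15 for partners, -0.26 to 0.40 for the WAVE complex, -0.02 to 0.05 for KH domain genes, -0.61 to 0.27 for targets and -0.29 to 0.38 for neighbours, the last moving by more than its spread without shFTO replicate 2 or 3. Depth limits FXR2, the targets and the neighbours, which rest on few reads.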
